A study of Mus musculus with 6 samples.

Results

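Chromaffin nuclei of the Lix1 and Dach2 type are the smaller of 2 types of catecholamine-making nuclei in these adrenal glands, and they numbered 415 of the 21034 nuclei kept. They were chosen by measured values. A nucleus counted as chromaffin when at least 3 of 8 genes (Th, Dbh, Ddc, Slc18a1, Chga, Chgb, Xkr4, Syt1) were detected and together made up at least 0.3% of its UMIs (unique molecular identifiers, 1 per captured RNA molecule). It belonged to the Lix1 and Dach2 type when more of the 5 genes Lrrtm4, Dach2, Grm8, Lix1 and Pcdh15 were detected in it than of the 5 genes Slc6a4, Olfm3, Lhfpl3, Spock1 and Ryr3. With the sides reversed, 918 nuclei formed the Slc6a4 and Olfm3 type, and 104 chromaffin nuclei had equal numbers.

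The nuclei came from whole adrenal glands of female C57BL/6 J mice aged 10 to 11 months, 1 pair of glands per library, and were sorted on the DNA stain DAPI alone. The mice were wild type (WT, 3 libraries) or carried a knockout (KO, 2 libraries) of Tmem127, which encodes a membrane protein of endosomes and lysosomes and is a tumour suppressor gene of phaeochromocytoma, the tumour of chromaffin cells. The labels used here do not say which part of Tmem127 is deleted or in which tissues. For 1 more library the title and the genotype field disagree. It is called the unassigned library, it enters descriptions within a library, and it stays out of every test of genotype. The files of KO replicate 1 and WT replicate 1 list 32285 genes and the rest 31053, which makes 2 annotation batches. Nothing in the labels beyond the gland pairs says how the libraries relate, so p-values refer to these libraries only. Those from edgeR, a test on summed counts, also draw on the spread of all genes tested. A very small p therefore does not measure 1 gene's own spread between the few libraries.

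Chromaffin cells are neuroendocrine cells of the adrenal medulla that make catecholamines, store them in dense granules with the chromogranins, and release them when the splanchnic nerve fires. Tyrosine hydroxylase (Th), dopa decarboxylase (Ddc) and dopamine beta-hydroxylase (Dbh) lead to noradrenaline. In adrenaline cells Pnmt adds the last step, and noradrenaline cells lack it.

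The depth of the libraries ran from 4825169 to 43377724 UMIs, with medians of 1289 to 7675 UMIs per barcode. The type's own nuclei had a median of 9854 UMIs in KO replicate 1 and 2162 in KO replicate 2. WT libraries, always in the order of replicates 1 to 3, had 13168, 2871 and 6988, and the unassigned library had 9871.5. KO replicate 2 and WT replicate 2 are therefore the shallow libraries in each comparison below. Of the barcode sequences, 72 occurred in 2 or more libraries, and 0 of them belonged to the type. Levels are given in CPM, a gene's share of all UMIs of the summed nuclei on the usual scale, and the SD is between libraries.

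Th was detected in 83.9% of the nuclei and Dbh in 82.2%, at 784 ± 319 and 471 ± 74.9 CPM (SD, n = 6 libraries), against 33.4 and 9.10 CPM in cortical nuclei. Of the genes on the Lix1 side, Lrrtm4, a synaptic adhesion protein, was detected in 96.1% of the nuclei. Lix1 was detected in 76.4%, Dach2, a transcription cofactor, in 68.9%, and Grm8, a metabotropic glutamate receptor, in 42.7%. In Slc6a4 and Olfm3 nuclei these shares were 36.4%, 8.28%, 7.52% and 3.81%. Pcdh15, a protocadherin, hardly told the types apart by detection (98.6% and 94.0%), although its level was 4747 CPM against 1360. On the Slc6a4 side, Lhfpl3 was detected in 44.1% of the type's nuclei, Spock1 in 43.4%, Ryr3 in 12.0%, Slc6a4 in 9.64% and Olfm3 in 4.82%. In Slc6a4 and Olfm3 nuclei these genes were detected in 98.8%, 92.7%, 78.4%, 66.1% and 81.5%. All of these genes chose the nuclei, so the values are a description and do not test the label.

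Markers of other cell types were low in some lists, while other lists stood above their level in Slc6a4 and Olfm3 nuclei. Among Schwann or sustentacular markers, Foxd3 and Sox2 were at 0, and the list summed to 112 to 145 CPM in the KO libraries and 190 to 285 in the WT libraries. Most of that came from Cdh19, a cadherin (97.1 ± 39.3 CPM, SD, n = 6), and Erbb3, a neuregulin receptor (62.0 CPM), whereas the summed list was 29.9 CPM in Slc6a4 and Olfm3 nuclei. Cortical steroid genes summed to 713 CPM, near the 689 of the Slc6a4 and Olfm3 nuclei and far below the 9085 of cortical nuclei. The ganglion neuron list summed to 675 CPM against 215, mainly through Elavl4, a neuronal RNA-binding protein (585 ± 84.5 against 159 ± 16.7 CPM, SD, n = 6). The pericyte list summed to 96.2 CPM against 7.57, mainly through Rgs5 (91.8), and to 90.1 in nuclei neither chromaffin nor cortical. For the adipocyte list the sum was 109 CPM against 30.9, mainly through Pparg (102), and 551 in those nuclei. Macrophage markers summed to 98.5 CPM in KO replicate 2 and to 6.68 to 16.9 in the other libraries. In WT replicate 2 endothelial markers summed to 169 CPM, against 19.6 to 75.3 in the other libraries. Its T or NK cell markers summed to 59.0 CPM, against 5.65 to 13.4. Mki67, a marker of dividing cells, was at 0. Median doublet scores were 0.0137 to 0.0261 by library, against 0.00622 to 0.0123 in Slc6a4 and Olfm3 nuclei. The part of these signals in the results below was not tested.

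Myl1, the light chain of fast skeletal muscle myosin, had the highest ratio of levels between the types of the genes outside the rule. Without thinning it was detected in only 19.4% to 53.1% of the type's nuclei by library. It was at 227 and 226 CPM in the KO libraries, at 335, 181 and 381 in WT, and at 276 in the unassigned one. In Slc6a4 and Olfm3 nuclei the same libraries gave at most 2.20 CPM, and 6 UMIs of Myl1 in all. Every library was high in the first type and near the floor in the second. The bases before the start sites of Lix1, which is part of the rule, and of Myl1, which is not, are shown because Lix1 names the type and Myl1 has the highest ratio outside the rule. They are the 250 bases before 1 RefSeq start site of each gene (GRCm38.p6), at chr17:17402436-17402685 on the plus strand and chr1:66945057-66945306 on the minus strand. In the GENCODE annotation used for gene positions Myl1 spans 66924295 to 66945404, so its window lies inside that longer gene, and Lix1 begins at 17402672, inside the end of its window. Capitals mark matches to the E box letters CANNTG, searched on both strands, which read the same.
Lix1: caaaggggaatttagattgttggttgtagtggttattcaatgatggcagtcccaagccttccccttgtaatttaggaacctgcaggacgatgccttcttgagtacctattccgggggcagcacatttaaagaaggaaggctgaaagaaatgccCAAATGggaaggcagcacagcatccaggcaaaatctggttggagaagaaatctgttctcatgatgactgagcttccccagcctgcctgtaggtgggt
Myl1: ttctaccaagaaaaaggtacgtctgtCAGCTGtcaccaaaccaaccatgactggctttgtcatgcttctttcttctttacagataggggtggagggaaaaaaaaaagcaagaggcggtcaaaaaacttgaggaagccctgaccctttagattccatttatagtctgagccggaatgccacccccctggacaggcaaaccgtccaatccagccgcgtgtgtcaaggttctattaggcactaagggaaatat
Each window holds 1 match, and 66.2% of 32851 windows of that length hold at least 1. The TATA box letters TATAAA, searched on both strands, have 0 matches in the Lix1 window and 1 in that of Myl1, and 12.4% of windows hold them. No binding was measured here.

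Across the type's whole profile, 6498 genes had a mean of at least 20 CPM over both types, and 107 of them (1.65%) were at least 2-fold higher in Lix1 and Dach2 than in Slc6a4 and Olfm3 nuclei in all 6 libraries. Lower by as much in all 6 were 152 (2.34%). Leaving out the 10 genes of the rule, 102 and 147 remained. The rule used this contrast, so nothing is tested or read from these counts. The median log2 ratio over the 6498 genes was -0.02, on the scale of log2 of CPM plus 1.

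After Myl1, the highest median log2 ratios were those of Sgpp2, a sphingosine-1-phosphate phosphatase (7.23, range 5.83 to 7.93 over libraries), and Ptprz1, a receptor tyrosine phosphatase (6.65, range 5.43 to 7.39). Fam19a2, a secreted chemokine-like protein, followed at 6.32 (range 4.54 to 7.54), with 464 to 1062 CPM in the type and 2.20 to 29.6 in the other. Among the next were the sodium-calcium exchanger Slc24a4 (5.20), the cadherins Cdh20 (5.03) and Cdh12 (4.61), the synuclein-binding Sncaip (4.98) and the imprinted gene Nnat (4.66). Nnat overlaps Blcap on the opposite strand, so reads of this pair may not be told apart if strand was not used. Aldh1a3, which makes retinoic acid, stood at 184 against 7.47 CPM (median log2 ratio 4.37), and the extracellular matrix gene Fras1 at 82.4 against 4.26 (4.34). Rgs5, a regulator of G protein signalling that also marks pericytes, was at 59.3 to 151 CPM against 0.67 to 8.81. The remaining genes among the 15 with the highest ratios were Brinp3 (4.76), the potassium channel Kcnj3 (4.52) and the adhesion protein Flrt2 (4.51). Of these 15, Brinp3 varied most, from 1.54 to 5.99 over the libraries.

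On the low side the largest median ratios belonged to the long noncoding RNA Gm27224 (-6.70) and Hhip, an inhibitor of hedgehog ligands (-6.47). Hhip was at 0 CPM in 4 of the 6 libraries, 4.53 in the unassigned library and 11.6 in KO replicate 2, while Slc6a4 and Olfm3 nuclei had 73.5 to 353. Then came Syt16 (-6.10), the glutamate receptor subunit Grid1 (-5.81), the kainate receptor auxiliary subunit Neto2 (-5.54) and the synaptic adhesion gene Il1rapl1 (-5.47). The others among the 10 lowest were 2900011O08Rik (-5.38), the neurotrophin receptor Ntrk2 (-5.33), Gm26713 (-5.11) and the sodium channel Scn1a (-5.07). Grid1 stayed at or below 5.80 CPM in each library of the type and at or above 137 in the other type.

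**Figure D1:**
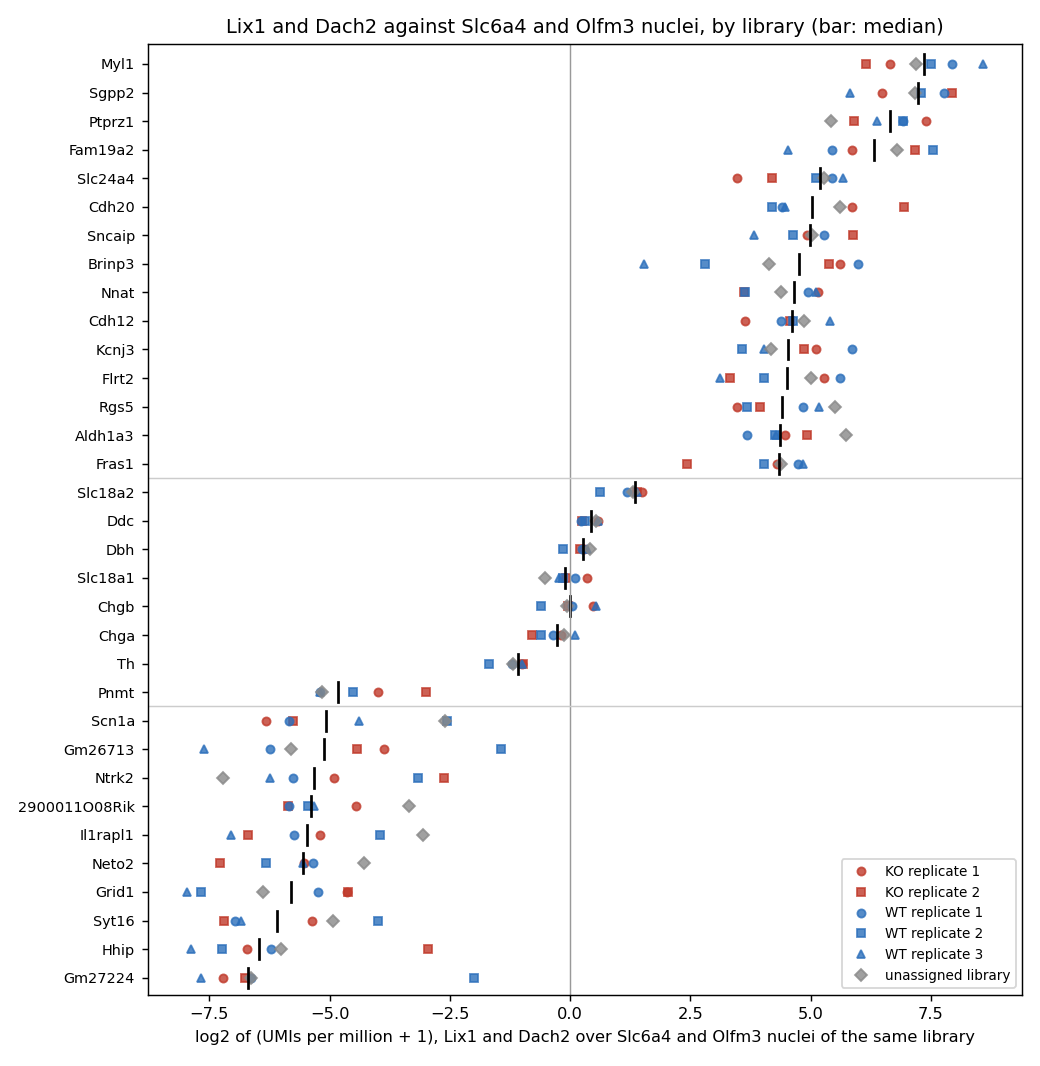
Log2 ratio of CPM plus 1 (horizontal axis) between Lix1 and Dach2 and Slc6a4 and Olfm3 nuclei of the same library for 33 genes, with 1 point per library, red for KO, blue for WT and grey for the unassigned library, and a bar at the median. The 15 genes at the top and the 10 at the bottom are those with the highest and lowest medians outside the rule, and the 8 between them belong to catecholamine synthesis and storage, where Pnmt lies farthest from 0.

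Of 13 catecholamine genes with a mean of at least 20 CPM, 0 were higher and 2, Pnmt and Slc6a2, lower in all 6 libraries. Among all genes these shares were 1.65% and 2.34%, and nothing is read from the counts. Th, Gch1 and Slc18a2 differed in mean level but missed the 2-fold mark in 1 or more libraries, while Dbh, Ddc and Slc18a1 stood closer. Pnmt was at 13.5 CPM in KO replicate 1 and 110 in KO replicate 2, at 9.35, 33.7 and 16.9 in WT, and at 16.6 in the unassigned one. Slc6a4 and Olfm3 nuclei had 228 to 887 CPM, so the groups of values did not overlap, and the median log2 ratio was -4.83. Dbh (471 against 404 CPM), Ddc (693 against 522), the vesicular monoamine transporter Slc18a1 (730 against 766) and the chromogranins Chga (1374 against 1693) and Chgb (1853 against 1864) were at like levels, and all 5, like Th, belong to the rule. Th was lower, with a median log2 ratio of -1.09 (range -1.69 to -0.98). The second vesicular transporter, Slc18a2, was higher (312 against 133 CPM), and the noradrenaline transporter Slc6a2 was lower in all 6 libraries (2.94 against 51.6). Gch1, which makes the cofactor of tyrosine hydroxylase, had 279 against 756 CPM.

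As a share of nuclei, each thinned to 1000 UMIs, Pnmt was detected in 2.85% ± 3.34 (SD, n = 6 libraries) of the type, in 39.6% ± 14.1 of Slc6a4 and Olfm3 nuclei and in 17.6% ± 12.7 of the chromaffin nuclei with equal numbers. Cortical nuclei, which do not make adrenaline, had it in 1.72% ± 1.53. By library the type's share was 1.54% in KO replicate 1, 7.94% in KO replicate 2, 6.06% in WT replicate 2 and 1.56% in the unassigned library. It was 0 of 103 nuclei in WT replicate 1, which allows a share of up to 2.91% by a floor of 3 counts (exact 95% upper bound 3.52%). It was 0 of 43 in WT replicate 3, which allows up to 6.98% (8.22%). The 2 libraries with the highest shares are the shallow ones, and cortical nuclei also had their highest shares there, 4.02% and 3.31%. Without thinning the type's shares were 7.69% to 16.4%, against 4.42% to 8.93% in cortical nuclei, at the median depths given above and 1713 to 11199 UMIs in cortical nuclei. Intervals and limits cover counting error only. Between genotypes the mean share was 4.74% ± 4.52 for KO (SD, n = 2) against 2.02% ± 3.50 for WT (SD, n = 3), and an exact two-sided permutation test gave p = 0.4, where 0.1 is the smallest that 2 against 3 libraries allow. Without KO replicate 2 the difference turned to -0.48 percentage points.

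**Figure D2:**
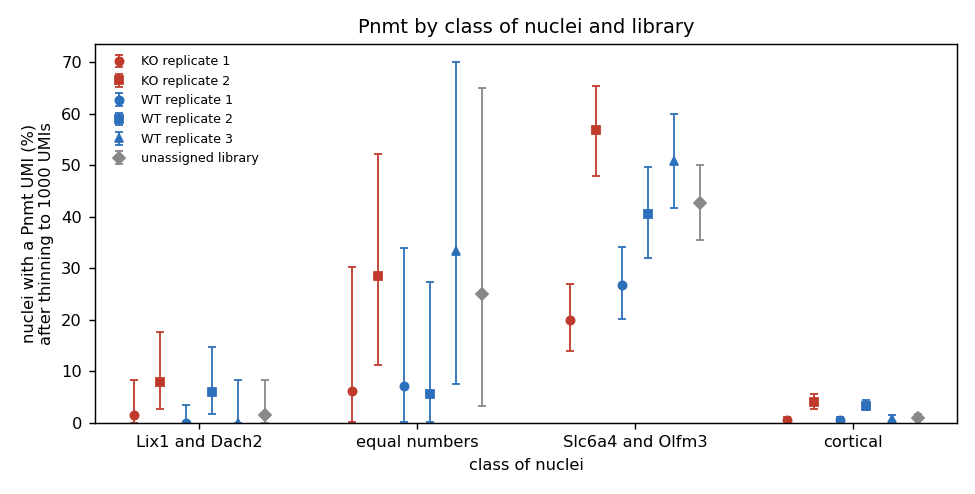
Share of nuclei with at least 1 Pnmt UMI (vertical axis, %) by class of nuclei and library after thinning to 1000 UMIs, with exact 95% binomial intervals as bars. Lix1 and Dach2 nuclei lie between 0 and 7.94%, beside cortical nuclei, and Slc6a4 and Olfm3 nuclei between 19.9% and 56.8%.

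Peptide and secretion genes are given against the 1.65% higher and 2.34% lower among all genes past the filter. Nothing is read from the counts. Of 13 peptide and granule genes past the level filter, 0 were higher and 2 lower in all 6 libraries, the neuropeptide precursor Vgf (4.87 against 48.1 CPM) and the prohormone convertase Pcsk1 (207 against 628). The vasoconstrictor peptide gene Npy had 231 ± 144 CPM (SD, n = 6) against 631 ± 330 and missed the 2-fold mark in 1 or more libraries. Penk, the enkephalin precursor, was below the filter, with 27 UMIs in the type and 0 in the other, which is at least 22.5-fold higher against a floor of 3 counts over the group. Of 24 exocytosis genes 1 was lower, the active zone gene Rims1 (17.0 against 63.5 CPM), and the median log2 ratio of the list was 0.07.

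Ion channel genes are given against the 1.65% higher and 2.34% lower among all genes past the filter, and nothing is read from the counts. Of 20 potassium channel genes 4 were higher in the type in all 6 libraries and 0 lower: Kcnb2 (1129 ± 185 against 165 ± 57.6 CPM), Kcnj3 (231 against 9.22), Kcnn3, a calcium-activated channel (195 against 11.4), and Kcnq5, an M-current channel (764 against 83.5), all with n = 6. Kcnip4, a subunit that binds Kv4 channels, ranged from 6142 to 12650 CPM by library against 2501 to 4232, short of the 2-fold mark in 1 library or more. Of 17 calcium and sodium channel genes 3 were lower, namely Cacnb4 (4.52 against 97.6 CPM), Cacna2d3 (48.2 against 196) and Scn1a (2.18 against 56.3), and 0 were higher. The 16 glutamate and GABA receptor genes gave 1 in each direction, Grm8 from the rule and Grid1. Of 3 acetylcholine receptor genes past the filter 0 passed the mark. The muscarinic receptor Chrm1 was below the filter, with 123 UMIs in the type and 5 in the other.

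Adhesion genes are given in the same way, against 1.65% and 2.34%. Of 33 past the filter 9 were higher in all 6 libraries: Lrrtm4 and Pcdh15 from the rule, and Cntn4, Cadm1, Cdh12, Cdh13, Lsamp and the guidance receptors Robo1 and Robo2. Cadm1 stood at 2679 against 463 CPM and Lsamp at 10714 against 3057. Lower were 5, Pcdh10, Cdh4, Cdh18, Tenm1 and the netrin receptor Unc5d (2.67 against 96.5 CPM). The list's median log2 ratio was 0.07.

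The lists of this paragraph also stand against 1.65% higher and 2.34% lower among all genes, and nothing is read from their counts. Among 17 sympathoadrenal transcription factor genes past the filter, Dach1 (1611 against 467 CPM), Dach2 from the rule and Eya4 (325 against 62.3) were higher, and the homeobox gene Isl1 was lower (7.74 against 109). Phox2a, Hand2 and Tbx20, which specify sympathoadrenal cells, passed the mark in neither direction, with for example 86.3 against 86.8 CPM for Phox2a. The hypoxia factor Epas1 had 87.5 to 143 CPM in the type and 12.1 to 57.2 in the other, and missed the 2-fold mark in 1 library or more. Within the list of RET and its partners, Gfra2 (7.08 against 64.5 CPM) and Ntrk2 were lower. Ret itself was below the level filter, with 65 UMIs in the type (8.43 to 25.7 CPM) and 3 in the other. Of 31 lysosome, autophagy and mTORC1 genes, 15 phaeochromocytoma susceptibility genes and 7 glucocorticoid genes, 0 passed in either direction.

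Nuclei at the edge of the rule were less distinct. The margin is the number of Lix1-side genes detected minus the number of Slc6a4-side genes detected. Among the 82 nuclei just inside it (margin 1), Pnmt was at 41.1 CPM and Gm32647, a long noncoding RNA, at 283. The 104 nuclei just outside (margin 0) had 157 and 1981 CPM. At margin 2 these levels were 18.7 and 110, and at margin 3 they were 6.86 and 9.80. Myl1 went from 7.45 CPM at margin 0 to 181 at margin 1 and 254 at margin 2, and Grid1 from 55.2 to 3.29 and 2.08. Nuclei at margin 0 had a median of 4223 UMIs, fewer than the 7765 at margin 2 and the 7109 at margin -2. KO replicate 2 had the largest number at margin 1, 18 of its 67 nuclei, and the unassigned library had 16 of 64. The others were 9 of 65 in KO replicate 1 and 15 of 107, 14 of 69 and 10 of 43 in the WT replicates.

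**Figure D3:**
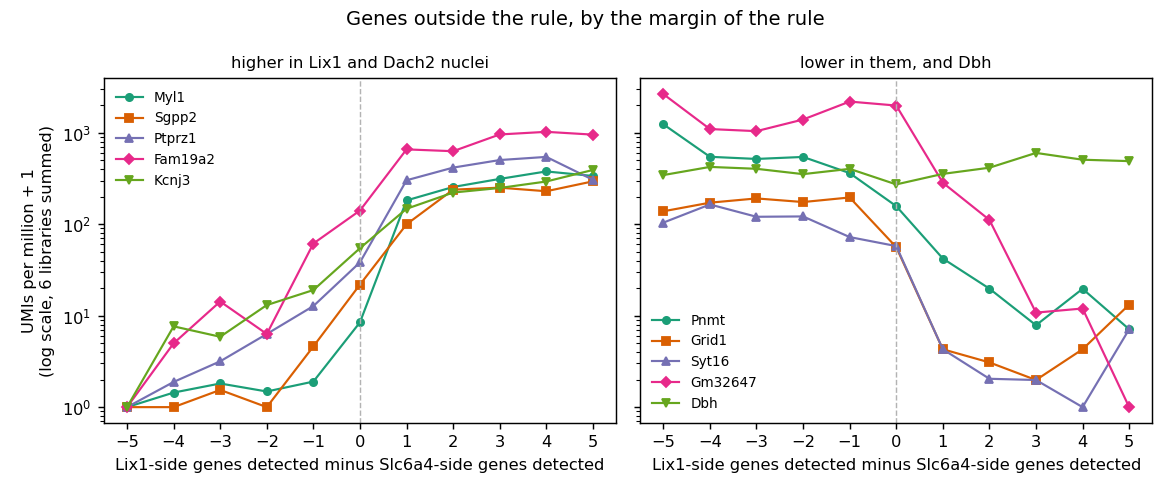
CPM plus 1 (log scale) of genes outside the rule, summed over the 6 libraries, by the margin of the rule, from -5 to 5. Myl1, Sgpp2, Ptprz1, Fam19a2 and Kcnj3 climb and Pnmt, Grid1, Syt16 and Gm32647 drop between margins -1 and 2. Dbh is lowest at margin 0 (271 CPM) and highest at margin 3 (601 CPM). The ends rest on 5 nuclei at -5 and 23 at 5.

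The share of the type did not separate the genotypes. Of the nuclei of both types it made up 28.6% in KO replicate 1, 31.5% in KO replicate 2, 39.2%, 34.7% and 25.7% in WT and 25.2% in the unassigned one. The means were 30.0% ± 1.99 (SD, n = 2) and 33.2% ± 6.84 (SD, n = 3), a difference of -3.16 percentage points with an exact two-sided permutation p = 0.6 on the logit share. Of all nuclei kept the KO libraries had 2.02% and 2.39%, WT libraries 2.39%, 2.10% and 1.22%, and the unassigned one 1.72%, with p = 0.8 by the same exact test. KO and WT values overlapped in both measures. In the annotation batch of KO replicate 1 and WT replicate 1 the KO library was the lower in both. In the other batch KO replicate 2 lay between WT replicates 2 and 3 as a share of both types and above both as a share of all nuclei. Without WT replicate 3 the difference as a share of all nuclei turned from 0.30 to -0.04 percentage points, and with nuclei of at least 1000 genes only it was 1.15 (exact permutation p = 0.5).

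**Figure D4:**
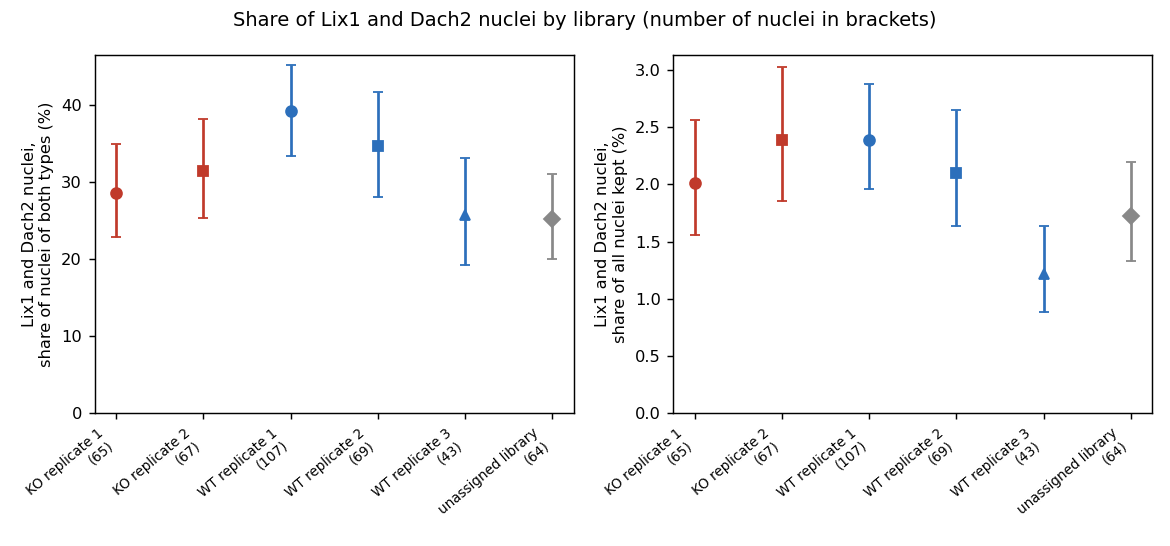
Lix1 and Dach2 nuclei as a share (%) of the nuclei of both chromaffin types (left) and of all nuclei kept (right), 1 point per library with its exact 95% binomial interval and the number of nuclei in brackets. The 2 KO libraries lie inside the range of the 3 WT libraries on the left, from 25.7% to 39.2%, and the WT replicate 3 library is lowest of the grouped libraries in both panels.

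Genotype was compared within the type on counts summed per library. Tmem127 itself (chromosome 2, 127247908 to 127261107, plus strand, mm10) was not lower in KO: KO libraries had 45.9 and 40.6 CPM, WT libraries 27.4, 21.1 and 36.7, and the unassigned one 19.6. Its log2 fold of KO against WT was 0.65 ± 0.43 (SE), with an adjusted p of 1.00 by edgeR's quasi-likelihood test. KO levels were higher without overlap in the other classes too, at 37.0 to 46.2 against 22.2 to 26.7 CPM in Slc6a4 and Olfm3 nuclei, 45.8 to 48.6 against 38.1 to 40.2 in cortical nuclei and 42.2 to 49.2 against 36.3 to 41.7 in the rest. The tags read the 3' end, which may lie outside the deleted part, so this value checks no label. For classes other than the type, the share of all genes without overlap is not given here.

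Of 5974 genes tested, 9 passed (0.151%), all higher in KO, with n = 2 KO and 3 WT libraries and edgeR's quasi-likelihood test at an adjusted p of 0.05. In all, 303 genes had an unadjusted p below 0.05, and KO and WT libraries did not overlap for 20.1% of genes. The count was 25 without KO replicate 1 and 29 without WT replicate 1, and 2 of the 9 genes were in each. With the batch term both of these fits compare only KO replicate 2 with WT replicates 2 and 3. It was 4 without WT replicate 2, with 3 of the 9 among them, and 0 without KO replicate 2, with 127 genes at an unadjusted p below 0.05. That fit holds 1 KO library. DESeq2 on the same counts called 0, with 84 genes below that unadjusted p and a smallest adjusted p of 0.0519. Without KO replicate 2 all 9 folds stayed above 0, from 0.73 for Pde10a to 3.51 for Nlgn1. KO replicate 2 has the fewest UMIs per nucleus of the type and the macrophage signal given above. WT replicate 2 has the endothelial and T or NK cell signals given above. The part of these signals in the calls was not tested.

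For 3 of the 9 genes, Cmss1, Taco1 and Gm42418, the KO libraries also lay above all WT libraries in Slc6a4 and Olfm3, cortical and other nuclei, and Gm26917 did so in all but cortical nuclei. These 4 are Cmss1, a ribosome biogenesis gene, Taco1, a mitochondrial translation activator, and the noncoding transcripts Gm42418 and Gm26917, which are neighbours on chromosome 17 (39846958 to 39848788 and 39843013 to 39846341). Here and below, the share of all genes without overlap in classes other than the type is not given, so nothing is read from how many genes do so. For Cmss1 the KO libraries had 1444 and 1391 CPM, WT libraries 565, 691 and 240, and the unassigned one 232, a log2 fold of 1.51 ± 0.26 (SE, edgeR adjusted p = 0.0177). In Slc6a4 and Olfm3 nuclei it had 1758 and 1202 against 612, 633 and 226 CPM, and in cortical nuclei 1801 to 1991 against 355 to 843. Gm42418 stood at 11768 and 10484 against 5141, 6821 and 3702 CPM in the type (fold 1.10 ± 0.23, edgeR adjusted p = 0.0330) and at 14139 to 15980 against 3792 to 8245 in cortical nuclei. Taco1 had a fold of 1.19 ± 0.24 and Gm26917 one of 1.09 ± 0.20. Without KO replicate 2 all 4 calls ended, with folds of 1.36 for Cmss1, 1.32 for Taco1, 1.2 for Gm42418 and 1.26 for Gm26917. The calls of Taco1, Gm42418 and Gm26917 also ended without KO replicate 1 (0.99, 0.99 and 0.89) or WT replicate 1 (1.02, 1.02 and 0.92), where each fit again rests on 1 KO library against WT replicates 2 and 3. The fold differed between the chromaffin types for 0 of these 4 genes, with an adjusted p of 1.00 for each by edgeR. For Gm26917 the cortical ranges overlapped (1138 to 1968 against 517 to 1537 CPM), while those of Cmss1, Taco1 and Gm42418 did not. Cmss1 overlaps Filip1l, Taco1 overlaps Taco1os and Gm42418 overlaps AY036118, each on the opposite strand, so their reads are uncertain if strand was not used.

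Pde10a, whose enzyme degrades cyclic AMP and cyclic GMP, rose in the type and was at lower levels in the KO libraries of the other classes. Its level was 1347 CPM in KO replicate 1, 2202 in KO replicate 2, 816, 957 and 647 in WT and 1588 in the unassigned one. Both KO libraries lay above all 3 WT libraries, and the log2 fold was 1.16 ± 0.21 (SE, edgeR adjusted p = 0.0177). In Slc6a4 and Olfm3 nuclei of the same libraries KO levels were 722 and 984 CPM and WT levels 1478, 2691 and 3051, a fold of -1.34 ± 0.20 (edgeR adjusted p = 0.0352). The unassigned one had 2996. Cortical nuclei had 339 to 352 CPM in KO against 554 to 1374 in WT, and the nuclei that were neither chromaffin nor cortical had 167 to 184 against 252 to 458. The difference between the folds of the 2 chromaffin types was 2.46 ± 0.22 (SE, edgeR adjusted p = 4.8e-15) in a fit with each library as a block. The KO to WT log2 ratio in the type was 0.72 in the annotation batch of KO replicate 1 and 1.48 in that of KO replicate 2. Within the type alone the fold was 0.73 without KO replicate 2 (adjusted p = 1.00), and without WT replicate 2 the adjusted p was 0.0971. Leaving out each library in turn moved the difference between 1.80 and 3.03, and the fits without KO replicate 1 or KO replicate 2 hold 1 KO library.

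The other 4 genes were Gm16223, Gm32647 and 2 adhesion genes. Gm16223, a predicted protein-coding gene, read 149 and 98.5 CPM for KO, 31.4, 59.0 and 36.7 for WT and 77.0 for the unassigned library (fold 1.82 ± 0.32, edgeR adjusted p = 0.0177). In Slc6a4 and Olfm3 nuclei its KO values, 67.8 and 119, reached into the WT range of 118 to 209. Nlgn1, the synaptic adhesion protein neuroligin, rested on 48 UMIs in the 5 libraries: 47.3 and 40.6 CPM for KO, 4.01, 0 and 0 for WT, and 84.5 for the unassigned library (fold 4.01 ± 0.79, edgeR adjusted p = 0.0330). Cntnap2, another neuronal adhesion gene, had 116 and 52.2 against 26.1, 21.1 and 33.9 CPM (fold 1.77 ± 0.36). Gm32647 had 155 and 110 against 62.8, 46.4 and 19.8 CPM (fold 1.5). It stood at 888 to 1840 CPM in Slc6a4 and Olfm3 nuclei, where the genotypes overlapped. KO levels were higher without overlap in cortical nuclei (10.9 to 11.6 against 5.75 to 8.42 CPM) and in the rest (12.5 to 19.3 against 6.57 to 9.54). Over the 6 libraries together, 172 and 106 of the type's Gm32647 UMIs came from margins 1 and 2, and 10, 10 and 0 from margins 3, 4 and 5. Nlgn1 was also higher in KO in cortical nuclei (12.9 to 21.3 against 6.49 to 8.42 CPM). Without KO replicate 1 or WT replicate 1 the calls of Gm16223, Gm32647 and Cntnap2 ended, and the folds moved to 1.08 and 1.12 for Gm16223, to 1.82 and 1.85 for Gm32647 and to 0.87 and 0.90 for Cntnap2. Nlgn1 gave no value without KO replicate 1, where it fell below the filter on low counts, and its call ended without WT replicate 1 (6.96). With doublets kept its fold was 2.03, and with the unassigned library counted as WT 1.62, and its call ended in both. The tenth smallest p was that of Gm28905, which missed the threshold (fold 2.23 ± 0.48, edgeR adjusted p = 0.0530).

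**Figure D5:**
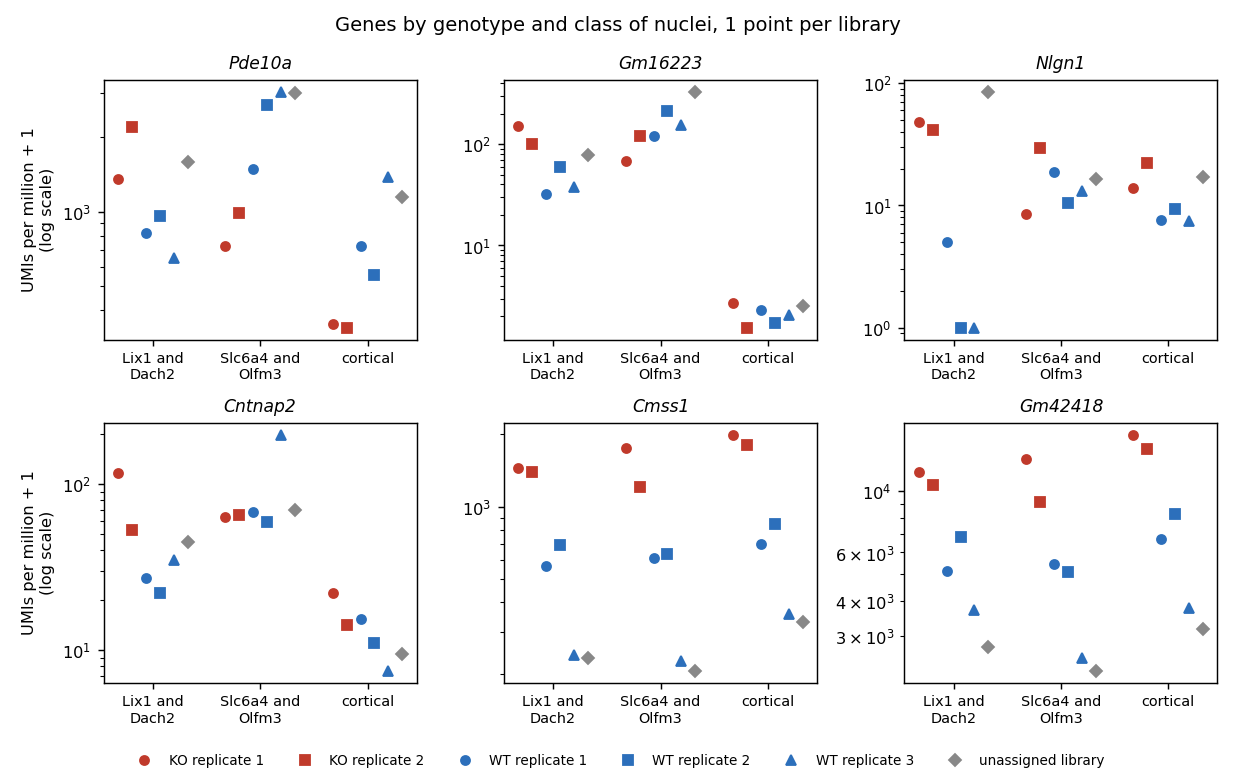
CPM plus 1 (log scale) of 6 genes in Lix1 and Dach2, Slc6a4 and Olfm3 and cortical nuclei, 1 point per library, red for KO, blue for WT and grey for the unassigned library. Pde10a is higher in KO in the first class and lower in the other classes, while Cmss1 and Gm42418 are higher in KO in all 3.

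By gene list, the type's changes between genotypes were few. Of 30 adhesion genes tested 2 rose (Nlgn1 and Cntnap2) with a list median of -0.11, and of 16 cyclic nucleotide genes 1 rose (Pde10a) with a list median of 0.16, beside a median of 0.0048 and 0.151% called over all genes tested. The calls of Nlgn1 and Cntnap2 ended by DESeq2, with doublets kept and with no batch term. In each of the other 15 lists 0 genes passed edgeR's test. These held 12 catecholamine genes (7 above 0, median 0.24), 12 peptide and granule genes (10 above 0, median 0.27), 22 potassium channel genes (16 above 0, median 0.19) and 26 lysosome, autophagy and mTORC1 genes (12 above 0, median -0.02). Th had a fold of 0.34 ± 0.19 and Npy one of 1.13 ± 0.25 (edgeR adjusted p = 0.0542). Of 6 immediate early and heat shock genes tested in the type all had folds above 0, with a median of 1.10, and 0 passed. In Slc6a4 and Olfm3 nuclei 15 of 16 were above 0 and 5 passed, where 12 of 10180 genes did (0.118%). The difference between the types passed for 0 of 13 of these genes. Over the list's 27 genes the summed level in the type was 226 CPM in KO replicate 1, 1090 in KO replicate 2, 174 to 392 in WT and 752 in the unassigned one, so KO replicate 2 stood apart from KO replicate 1.

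The KO effect differed between the types for 39 of 8984 genes (0.434%), where the median difference over all genes was -0.01. The difference was positive for 37 and negative for 2. The types share libraries, so a fold in one and a fold in the other are given side by side and each difference is tested within libraries. After Pde10a and Gm16223, the smallest p-values belonged to Hs3st2, a heparan sulfate sulfotransferase (0.99 in the type against -0.55), Gm32647 and Nlgn1. Then came the kinase Pak3 (0.68 against -0.84), Pam, which amidates peptides (0.62 against -0.63), the secretin receptor Sctr (0.46 against -0.99), Cntnap2, and the splicing factor Mbnl3 (-0.13 against -1.93). From the gene lists, Pnmt (difference 1.63, edgeR adjusted p = 0.0487), the potassium channel genes Kcnq3 and Kcnip4, Ntrk3, Pde4b and Etv5 were also among the 39. For Pnmt the KO level in the type is 110 CPM in KO replicate 2 and 13.5 in KO replicate 1. Negative differences belonged to Gm15675 (-2.69) and Cd55 (-1.77), a complement inhibitor.

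For Hs3st2 the KO libraries of the type had 372 and 440 CPM and its WT libraries 227, 101 and 257, without overlap, and the other type had 37.7 and 200.3 against 67.0, 171 and 322. When any 1 of the 5 libraries was left out, the difference ran from 1.80 to 3.03 for Pde10a and from 1.51 to 1.69 for Hs3st2. The fits without KO replicate 1 and without WT replicate 1 are the same comparison. Without KO replicate 2 the fit again holds 1 KO library. The call of Hs3st2 ended with no batch term (adjusted p = 0.497) and with the unassigned library counted as WT (0.111). Without KO replicate 1 or WT replicate 1 the calls of Gm16223, Gm32647, Nlgn1 and Cntnap2 ended, with differences of 1.67, 1.10, 6.93 and 1.94 in the first case and 1.67, 1.09, 6.52 and 1.94 in the second. Without KO replicate 2 those of Pak3 (1.23), Pam (0.84), Sctr (0.22) and Mbnl3 (1.07) ended. Leaving out KO replicate 1 or WT replicate 1 raised Sctr to 2.49 and 2.48 and Mbnl3 to 2.70 and 2.69, and the call of Sctr also ended without WT replicate 3 (1.11). With doublets kept the difference was 2.40 for Nlgn1 (edgeR adjusted p = 0.155) and 0.78 for Mbnl3 (0.833). It was 2.01 for Nlgn1 with the unassigned library counted as WT (adjusted p = 1.00) and 0.83 for Mbnl3 with it counted as KO (0.978). The count of 39 was 13 without KO replicate 1, 13 without WT replicate 1 (8 of the 39 in each, and again the same comparison), 19 without KO replicate 2 and 22 without WT replicate 3. With nuclei of margin 2 or more only, it was 12, and the difference of Gm32647 turned to -2.36.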

How the data were processed

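Nuclei of whole mouse adrenal glands were sequenced with a droplet 3' method. Each deposited file holds UMI counts of genes by barcodes, made with Cell Ranger 4.0.0 for 2 libraries and 3.1.0 for 4, per the file headers, on mm10, per the submitters' processing notes. The sources used here do not state whether counting used intronic reads or strand. The 30406 genes shared by both annotations were kept.

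Barcodes needed 300 genes and under 5% mitochondrial UMIs, which took out 48 of 21724, and 642 were marked as doublets with scrublet in scanpy 1.11.5, the highest scores at 0.8% per 1000 barcodes. Cortical nuclei were those with at least 3 of 8 steroid genes at 0.3% of UMIs or more that were not chromaffin. Counts were summed per library and type. KO and WT were compared with edgeR 4.0.16 (quasi-likelihood test, TMM factors, filterByExpr, batch and genotype terms, R 4.3.3) with Benjamini-Hochberg adjustment over all genes tested, at 0.05. The difference between types was fitted with each library as a block and terms for type, type by batch and type by genotype. Fold changes are log2, KO over WT. Shares were compared by exact two-sided permutation over the 10 splits of 2 against 3 libraries (numpy 2.4.6), and intervals are exact binomial at 95% (scipy 1.17.1). The contrast between the types has no test, because the rule used it. Alternatives covered scaling, filters, batch term, doublets, depth, margin, marker threshold, the unassigned library, each library left out, and DESeq2 1.42.0.

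The members and the gene lists were chosen with earlier results of these data known. Named between genotypes are Tmem127, then up to 10 called genes with the largest folds in each direction that moved alike in both batches, and, where fewer than 10 pass, the 10 smallest p-values. For the difference between types the 10 smallest p-values among called genes are named. For the contrast between the types the 15 highest and 10 lowest median ratios outside the rule are named. Members of the 17 lists are named beside their list. Other genes, such as Ret, Penk, Chrm1, Gm15675 and Cd55, were chosen after their values were seen. Counts were also simulated in 1 run per comparison, with a dispersion of 0.1 for all genes, no batch effect and 200 genes changed. Genes with few UMIs were not among those changed. For KO against WT 4% of 2-fold and 40% of 4-fold changes were recovered (6017 genes). For the difference 0% and 9% were recovered (8948 genes). The dispersion was set rather than estimated from these data, and the 2 types of a library were drawn with no shared variation. The recovered shares are therefore not the power of the fits used here. There were 0 false calls in each, which does not vouch for the calls here, because these libraries can differ in ways not simulated.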

Additional observations from a re-analysis of the deposited data

Results flagged for a closer look

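For 10 genes the effect of the knockout differed between the 2 chromaffin types by edgeR's test of the difference, and these are the 10 smallest adjusted p-values of 39. Each value is the log2 fold of KO over WT in Lix1 and Dach2 nuclei minus that in Slc6a4 and Olfm3 nuclei, with its SE. The difference was 2.46 ± 0.22 for Pde10a (adjusted p = 4.8e-15), 2.54 ± 0.35 for Gm16223 and 1.59 ± 0.27 for Hs3st2. It was 1.82 ± 0.31 for Gm32647, 4.93 ± 0.89 for Nlgn1 and 1.42 ± 0.26 for Pak3. It was 1.21 ± 0.22 for Pam, 1.39 ± 0.26 for Sctr, 2.19 ± 0.41 for Cntnap2 and 1.60 ± 0.31 for Mbnl3 (adjusted p = 0.00124). All 10 are positive in this fit. Each of them except Pde10a lost its call under 1 or more of the alternatives. With nuclei of margin 2 or more only, the difference of Gm32647 was -2.36. Nlgn1 rested on 48 UMIs in the type, and Mbnl3 had a fold of -0.13 there.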

How the results depend on the processing

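The count of 9 genes between KO and WT in Lix1 and Dach2 nuclei was 36 with no filter on low counts, 5 with marker UMIs of at least 0.5% and 1 when the unassigned library joined the KO group. It was 0 with no batch term (179 genes at an unadjusted p below 0.05 by edgeR), 0 with doublets kept (286), 0 when it joined WT (328) and 0 by DESeq2 (84). Leaving out 1 library gave 0 to 29. The count of 39 genes for the difference between the types was 7 with no batch term, 20 with nuclei of at least 1000 genes, 12 at a margin of at least 2, and 19 with marker UMIs of at least 0.5%. It was 9 and 3 when that library joined KO and WT, and 13 to 41 with 1 library left out. The difference of Gm32647 reversed to -2.36 at a margin of at least 2. That of Pde10a stayed positive under all 14 alternatives (1.80 to 3.03), and some of these hold 1 KO library. With the unassigned library counted as KO its adjusted p by edgeR was 0.0371. The fold of Pde10a within the type lost its call under 8 of 15. The difference in share of all nuclei ran from -0.042 to 0.54 percentage points with 1 library left out and was 1.15 with nuclei of at least 1000 genes, and that in the share with Pnmt from -0.48 to 5.92. The genes higher and lower in the type numbered 87 to 147 and 107 to 190 over 13 alternatives. The causes were not tested. No paired analysis was possible because the replicate numbers follow the accession order and pair no samples. The type's summed counts, from 172542 to 1496659 UMIs per library, limit what KO against WT can show.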
